A study of Prunus dulcis and Malus domestica and Olea europaea with 8 samples.

Results

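The miRNA families miR164, miR169, miR171, miR172 and miR394 were examined in small RNA libraries of 8 plant foods. All genes of the deposited count table whose name carries 1 of these 5 family numbers were taken, which gave 34 miRNA genes beside 175 others in the table. Of these, 16 belonged to miR169, 8 to miR171, 4 to miR164, 4 to miR172 and 2 to miR394. The foods were the edible portions of almond (Prunus dulcis), apple (Malus domestica), olive (Olea europaea), orange (Citrus sinensis), pear (Pyrus communis), spinach (Spinacia oleracea), tomato (Solanum lycopersicum) and walnut (Juglans regia). Each food was represented by 1 sample and 1 library, so no spread between samples of a food was available and foods were not compared by a test between groups. The labels give no cultivar, ripeness or age. The study describes the other foods as bought in shops and sequenced without heating, and almond is not among the foods in its text.

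A plant miRNA is cut from a hairpin transcript and guides an ARGONAUTE protein to mRNAs with a nearly complementary site, which are then cleaved or kept from translation. The 5 families each act on transcripts of a regulator of plant development. miR164 targets NAC transcription factors such as the CUC genes, which set the boundaries between organs, and ORE1, which promotes leaf ageing. miR169 targets the NF-YA subunits of the CCAAT-binding NF-Y complex and is known from drought and root development. miR171 targets GRAS transcription factors of the HAIRY MERISTEM group, which maintain shoot meristems. miR172 targets AP2-like transcription factors and promotes flowering and the adult phase. miR394 targets the mRNA of an F-box protein, LEAF CURLING RESPONSIVENESS, and takes part in keeping stem cells in the shoot tip.

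All libraries were aligned to peach (Prunus persica), so a read was counted only where it matched a peach hairpin, and a gene named here is the peach copy that took the reads. The total count on all genes of the table was lowest in walnut (39249), highest in apple (212021) and had a median of 67321. Levels are given as raw counts or as a share of this total, with exact 95% intervals that cover counting error only, since copies made in PCR were not marked. A count of 0 allows up to 3 counts, that is 0.00141% of the apple library and 0.00764% of the walnut library. Members of a family can be alike in their mature part, and mature sequences were not compared here. The way in which reads that fit several copies were assigned is not stated, so the split between copies is uncertain. Both arms of a hairpin are summed in 1 count. In bulk tissue, fewer cells with a miRNA and less of it per cell cannot be told apart.

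The 5 families together held 11.4% of the miRNA counts in tomato (95% CI 11.2 to 11.6), 5.75% in orange (5.57 to 5.93), 4.90% in walnut (4.69 to 5.12) and 3.32% in spinach (3.17 to 3.48). They held 2.17% in apple (2.11 to 2.23), 1.87% in pear (1.79 to 1.95), 0.874% in almond (0.799 to 0.954) and 0.421% in olive (0.374 to 0.473). A different family carried this share in different foods. miR164 made up 97.8% of the 4598 counts on the 5 families in apple, 93.9% of 10356 in tomato, 74.5% of 2037 in pear and 70.4% of 3853 in orange. miR171 made up 96.5% of 1924 in walnut and 72.7% of 498 in almond, miR172 made up 92.2% of 1825 in spinach, and miR169 made up 63.9% of 285 in olive. These proportions were taken within a library and do not depend on how libraries were scaled to each other.

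**Figure D1:**
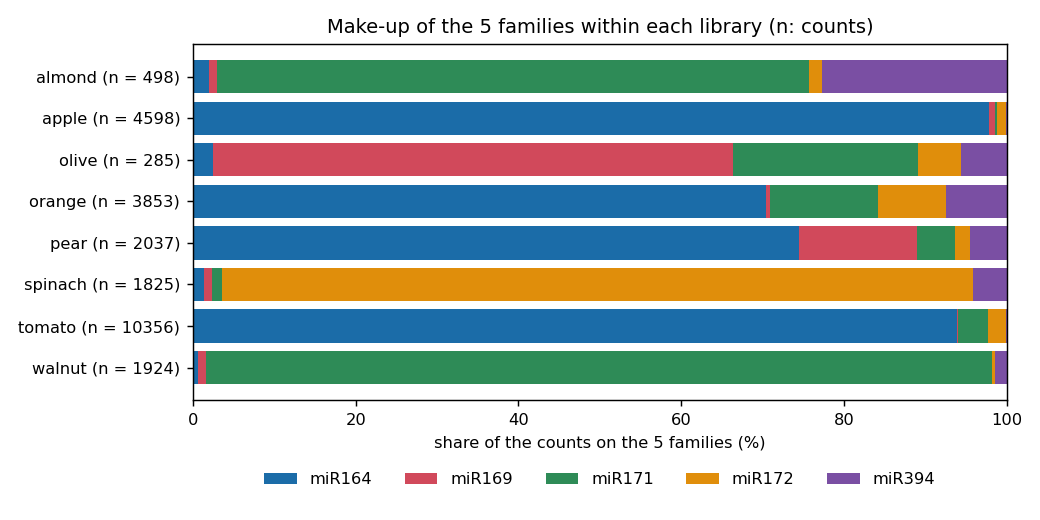
Make-up of the counts on the 5 families in each food; each bar is 1 library, the colours are the families, and the horizontal axis is the share of the counts on the 5 families in percent. miR164 fills most of the bar in apple, orange, pear and tomato, miR171 in almond and walnut, miR172 in spinach and miR169 in olive.

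Of the 34 genes, 26 (76.5%) had 3 or more counts in at least 1 food, against 72.2% of all genes of the table. At least 100 counts in a food were reached by 15 of the 34 (44.1%), against 35.4% of all genes. The median of the highest count per gene was 24 over the 34 genes and 16 over all genes. No member had at least 3 counts in all 8 foods, a pattern shown by 6.7% of all genes, and 3 members (miR171b, miR172a and miR394a) had at least 1 count in every food, as did 9.09% of all genes. By food, orange had 18 members with at least 3 counts (52.9%, against 34.4% of all genes) and olive had 16 (47.1%, against 34%). Tomato also had 16 (against 33.5%), pear 14 (41.2% against 37.8%) and apple 13 (38.2% against 32.5%). Spinach and walnut each had 12 (35.3%, against 22.5% and 23.4%). Almond had 10 (29.4%), and was the only library in which this share was below that of all genes (46.4%). With every library thinned at random to 39249 counts, orange kept a mean of 16.29 members (47.9%, against 30.6% of all genes). Apple, the library with the highest total count, kept 5.08 (14.9%, against 20.2%). At that total almond and apple were below the share of all genes, and the other 6 foods above it.

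The 5 families were set beside other developmental families. The median highest count was 3 over the 16 miR169 genes and between 143 (miR394) and 1029.5 (miR164) in the other 4 families. The 12 genes of the auxin-related families miR160, miR167, miR390 and miR393 had a median highest count of 220, and the 12 genes of miR156 and miR535, which target SPL transcription factors, one of 631.5. Of the former, 11 reached 3 counts in a food, and of the latter all 12 did. By share, the 5 families exceeded both groups in tomato, orange and apple. In tomato they held 11.4% against 0.186% for the auxin families and 0.298% for the SPL families, in orange 5.75% against 3.41% and 2.42%, and in apple 2.17% against 0.614% and 0.659%. In pear, with 1.87%, they lay above the auxin families (0.519%) and below the SPL families (2.55%), and in walnut, with 4.90%, below the auxin families (39.5%) and above the SPL families (3.58%). They lay below both in almond, olive and spinach, with 0.874% against 17.7% and 21.0% in almond.

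**Figure D2:**
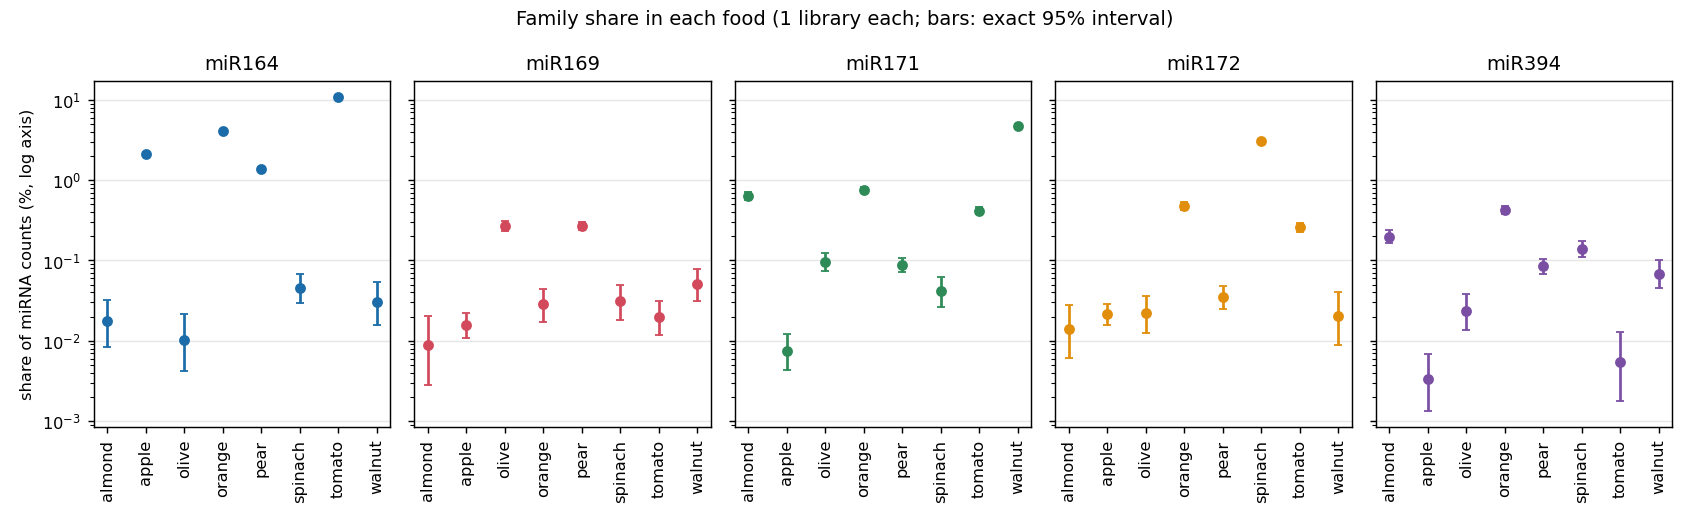
Share of each family in the miRNA counts of each food, in percent on a log axis; points are single libraries and bars exact 95% intervals for counting error. miR164 lies at or above 1.39% in 4 foods and at or below 0.0455% in the other 4, while walnut leads for miR171 and spinach for miR172.

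miR164 had the highest counts of the 5 families, 18503 over the 8 libraries. By share, it divided the foods into a high and a low set. Its share was 10.7% in tomato (95% CI 10.5 to 10.9), 4.05% in orange (3.90 to 4.20), 2.12% in apple (2.06 to 2.18) and 1.39% in pear (1.32 to 1.46). It was 0.0455% in spinach (0.0295 to 0.0672), 0.0306% in walnut (0.0158 to 0.0534), 0.0175% in almond (0.00841 to 0.0323) and 0.0104% in olive (0.00416 to 0.0213). The 4 high foods differed from each other by more than counting error, whereas the intervals of neighbouring foods in the low set overlapped. The high set holds 4 of the 5 libraries that the labels call fruits, and olive, the remaining one, was the lowest of all. The study's text instead groups tomato with vegetables and olive with fats and oils. In the deposited normalized reads the 4 foods were still the highest, at 270.5 in orange, 224.4 in tomato, 51.7 in pear and 18.7 in apple, against 9.54 in almond, the next. The tomato share was 2.65 times that of orange (2.54 to 2.76), but in normalized reads the tomato value was 0.829 of that of orange. The ratio was 1.69 with edgeR TMM and 4.06 with DESeq2 poscounts. The factors behind the normalized reads ran from 1.05 in almond to 241 in apple. Those of poscounts ran from 0.958 in walnut to 2.20 in almond.

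miR164a (ENSRNA049997029), on peach chromosome G6 from 26574904 to 26575067 on the + strand, had 9034 counts in tomato, 4442 in apple, 1491 in pear and 639 in orange. It had 22 counts in spinach, 7 in walnut, 6 in olive and 0 in almond. Tomato, apple and pear thus took nearly all of their miR164 counts on this copy, with 92.9% in tomato (95% CI 92.4 to 93.4), 98.8% in apple (98.4 to 99.1) and 98.3% in pear (97.5 to 98.9). Against the limit of 3 counts in almond, the apple share was at least 398-fold higher and the pear share at least 260-fold higher. In normalized reads the same bounds for this copy were 6.44-fold for apple and 17.7-fold for pear. For the whole family, apple held 2.12% and pear 1.39%, against 0.0175% in almond. The normalized reads of the family were 18.7 in apple, 51.7 in pear and 9.54 in almond. Almond, apple and pear are all of the rose family, and almond is of the same genus as the peach reference.

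Orange was the only food with many miR164 counts in which miR164a did not lead. miR164c (ENSRNA049997040; G6, 28330451 to 28330582, + strand) had 1310 counts in orange, 228 in tomato and 16 in pear. There were 3 in spinach, 3 in apple, 2 in walnut and 0 in almond and olive. miR164b (ENSRNA049997224; G8, 22112016 to 22112150, - strand) had 749 counts in orange, 434 in tomato, 36 in apple, 10 in almond and 0 in olive, pear, spinach and walnut. The orange counts were therefore divided among miR164c with 48.3% (46.4 to 50.2), miR164b with 27.6% and, for nearly all of the rest, miR164a. The 10 counts of miR164b were all that almond had of the family. The fourth copy, miR164d, was low throughout, with its highest count of 26 in tomato.

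**Figure D3:**
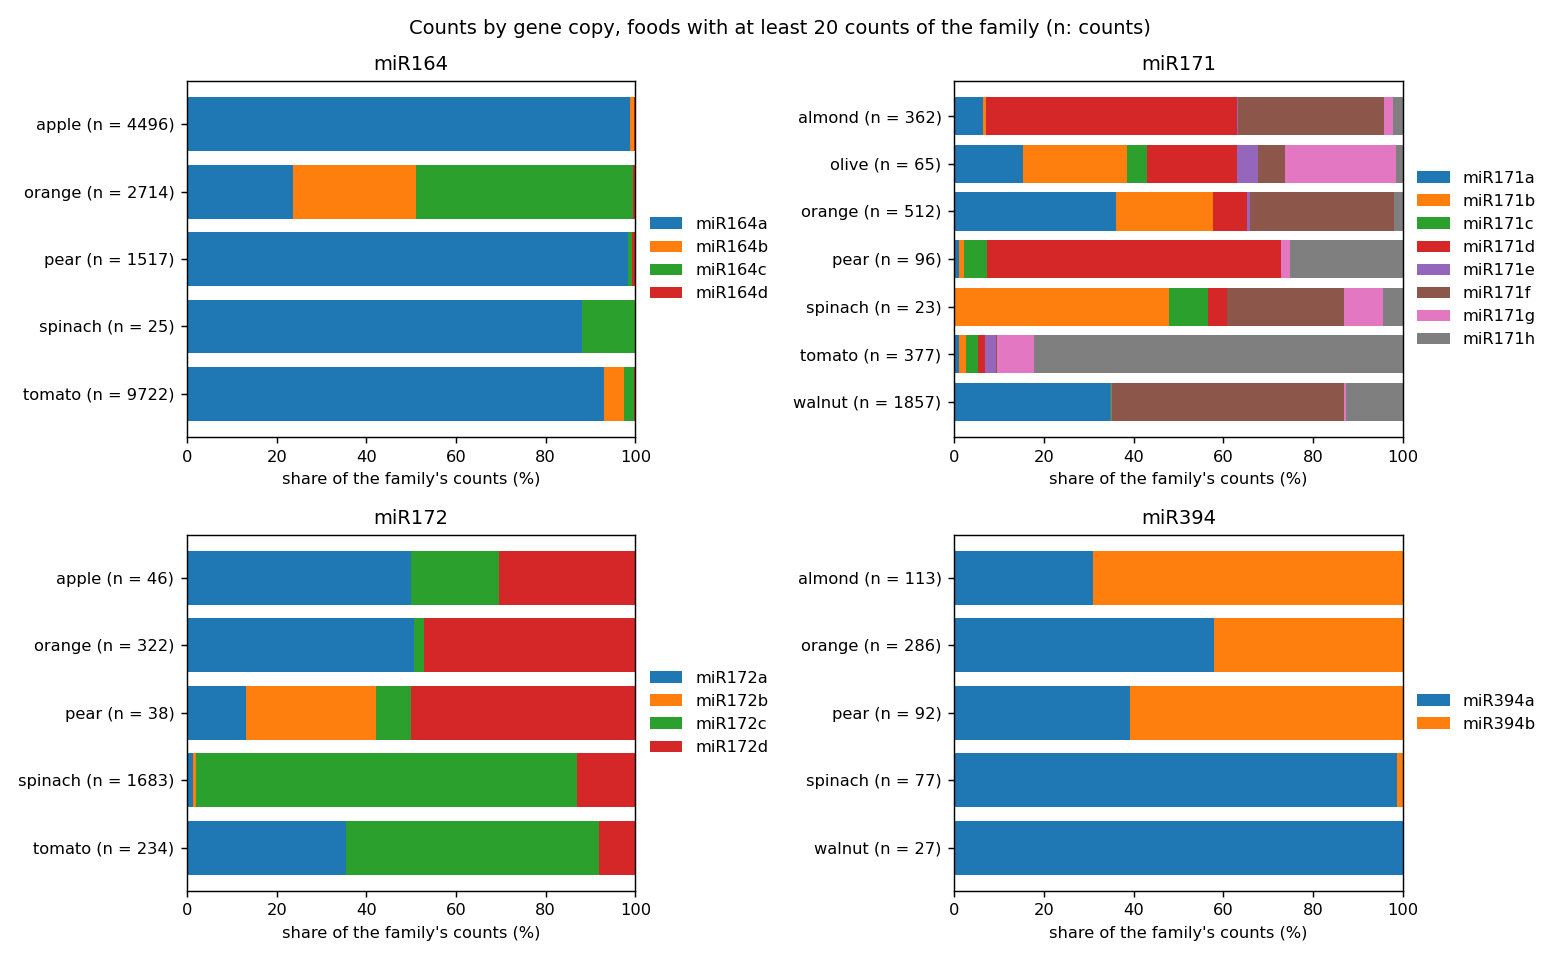
Split of the counts of miR164, miR171, miR172 and miR394 among their peach gene copies, in the foods with at least 20 counts of the family; each bar is 1 library and the axis is the share of the family's counts in percent. miR164a fills the bars of apple, pear and tomato but not that of orange, and the leading miR171 copy differs between most foods.

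miR171 was highest in walnut, where its 1857 counts made up 4.73% of the library (95% CI 4.52 to 4.95) and ranked number 5 among all families. Orange followed with 0.764% (0.699 to 0.833), almond with 0.635% (0.572 to 0.704) and tomato with 0.416% (0.375 to 0.460). Olive had 0.0961% (0.0742 to 0.122), pear 0.0881% (0.0713 to 0.108), spinach 0.0419% (0.0265 to 0.0628) and apple 0.00755% (0.00431 to 0.0123). The intervals of orange and almond overlapped, as did those of olive and pear, while those of pear and spinach did not. The walnut share was 6.19 times that of orange (5.61 to 6.84), and walnut was the highest food under each of the 4 other scalings tried. In normalized reads almond came next instead of orange, and walnut exceeded it 1.40-fold. Apple, the library with the highest total count on miRNA genes, had 16 counts of all 8 copies together. Within single libraries, miR164 outnumbered miR171 281-fold in apple (173 to 492) and 15.8-fold in pear (12.9 to 19.6). In almond the ratio of miR164 to miR171 was 0.0276 (0.0131 to 0.0514) and in walnut 0.00646 (0.00333 to 0.0113).

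The copy that led miR171 varied between foods. Among 7 foods with at least 20 counts of the family, 6 different copies led, with near ties in olive (16 and 15 counts) and orange (185 and 164). miR171f (ENSRNA049996227; G1, 33174516 to 33174603, + strand) had 962 counts in walnut, 164 in orange and 118 in almond. It had 6 in spinach, 4 in olive, 1 in tomato and 0 in apple and pear. miR171a (ENSRNA049996592; G3, 21899734 to 21899848, + strand) was also highest in walnut, with 645 counts, then in orange with 185 and almond with 23. It had 10 in olive, 8 in apple, 4 in tomato, 1 in pear and 0 in spinach. These copies held 51.8% and 34.7% of the walnut counts, and in orange miR171a led with 36.1% (32.0 to 40.5), close to miR171f with 32.0%.

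Other copies led in the remaining foods. miR171h (ENSRNA049996584; G3, 21868080 to 21868206, + strand) had 310 counts in tomato and 233 in walnut, followed by 24 in pear, 10 in orange and 8 in almond. Spinach and olive had 1 count of it each and apple 0. It held 82.2% of the miR171 counts in tomato (78.0 to 86.0), although as a share of the library walnut exceeded tomato 1.74-fold (1.46 to 2.06). This ratio was 8.49 in normalized reads and turned to 0.896 with DESeq2 poscounts factors. miR171d (ENSRNA049996404; G2, 29621754 to 29621904, - strand) led in almond and in pear, with 202 and 63 counts. Orange had 39 counts of miR171d, olive 13, tomato 6, apple 2, spinach 1 and walnut 0. It made up 55.8% of the family in almond (50.5 to 61.0) and 65.6% in pear (55.2 to 75.0). Walnut, the richest library in miR171, thus had no count of the copy that led in almond.

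The last copy of this size was miR171b (ENSRNA049997136; G7, 21049795 to 21049903, + strand), with 110 counts in orange, 15 in olive, 11 in spinach and 6 in tomato. Almond and apple had 3 counts each and pear and walnut 1 each. miR171b led in spinach with 11 of 23 counts. In olive, miR171g led with 16 of 65 counts, the lowest leading share of the family in any food. The highest counts of miR171g, miR171c and miR171e were 31, 10 and 9, all in tomato.

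Among the 4 copies of miR172, spinach had by far the most counts. The family held 3.06% of the spinach library (95% CI 2.92 to 3.21), 0.480% of orange (0.430 to 0.536) and 0.258% of tomato (0.226 to 0.293). The other 5 foods lay between 0.0140% in almond (0.00606 to 0.0277) and 0.0349% in pear (0.0247 to 0.0478), with overlapping intervals. Spinach exceeded orange 6.38-fold (5.66 to 7.21) and was the highest food under each of the 4 other scalings, although the ratio was 2.44 in normalized reads. Spinach was the only leafy food in the series. In spinach miR172 outnumbered miR164 67.3-fold (45.4 to 104), whereas in tomato the ratio was 0.0241 (0.0211 to 0.0274) and in orange 0.119 (0.105 to 0.133).

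The spinach counts lay on miR172c (ENSRNA049996977; G6, 4926841 to 4927008, - strand), which had 1429 counts in spinach, 132 in tomato, 9 in apple and 7 in orange. Pear had 3 counts of it, walnut 1, and almond and olive 0. This copy held 84.9% of the spinach counts of the family (83.1 to 86.6) and 56.4% of those of tomato (49.8 to 62.9). miR172d (ENSRNA049996362; G2, 25860595 to 25860713, + strand) had 219 counts in spinach and 152 in orange. It had 19 in tomato and in pear, 14 in apple, 8 in olive, 6 in walnut and 0 in almond. miR172a (ENSRNA049996993; G6, 7627706 to 7627832, - strand) was the leading copy in orange with 163 counts, ahead of 83 in tomato, 23 in apple and 21 in spinach. Olive had 7 counts of miR172a, almond 6, pear 5 and walnut 1. The orange counts were thus split between miR172a with 50.6% (45.0 to 56.2) and miR172d with 47.2%, with few on miR172c. miR172b had 14 counts in spinach, 11 in pear, 2 in almond and 0 in the other 5 foods.

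miR394 was counted in every food but nowhere above 1% of a library. Its share was 0.427% in orange (95% CI 0.379 to 0.479), 0.198% in almond (0.163 to 0.238), 0.140% in spinach (0.111 to 0.175) and 0.0844% in pear (0.0680 to 0.104). Walnut had 0.0688% (0.0453 to 0.100), olive 0.0237% (0.0135 to 0.0384), tomato 0.00552% (0.00179 to 0.0129) and apple 0.00330% (0.00133 to 0.00680). Almond and spinach, pear and walnut, and tomato and apple had overlapping intervals. Orange exceeded almond 2.15-fold (1.73 to 2.70) by share, but in normalized reads the orange value was 0.264 of that of almond. The ratio was 5.25 with edgeR TMM and 4.30 with DESeq2 poscounts. Tomato, which had the highest share of miR164, had 5 counts of miR394.

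Both miR394 copies lie on G1. miR394a (ENSRNA049996219; 33109945 to 33110088, - strand) had 166 counts in orange, 76 in spinach, 36 in pear, 35 in almond and 27 in walnut, and 8 in olive, 5 in apple and 2 in tomato. miR394b (ENSRNA049996288; 46215543 to 46215698, - strand) had 120 counts in orange, 78 in almond and 56 in pear, and 8 in olive, 3 in tomato, 2 in apple, 1 in spinach and 0 in walnut. The copies were both well counted in almond, orange and pear. In spinach and walnut nearly all counts were on miR394a, with 98.7% in spinach (95% CI from 93.0) and all 27 in walnut (95% CI from 87.2).

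**Figure D4:**
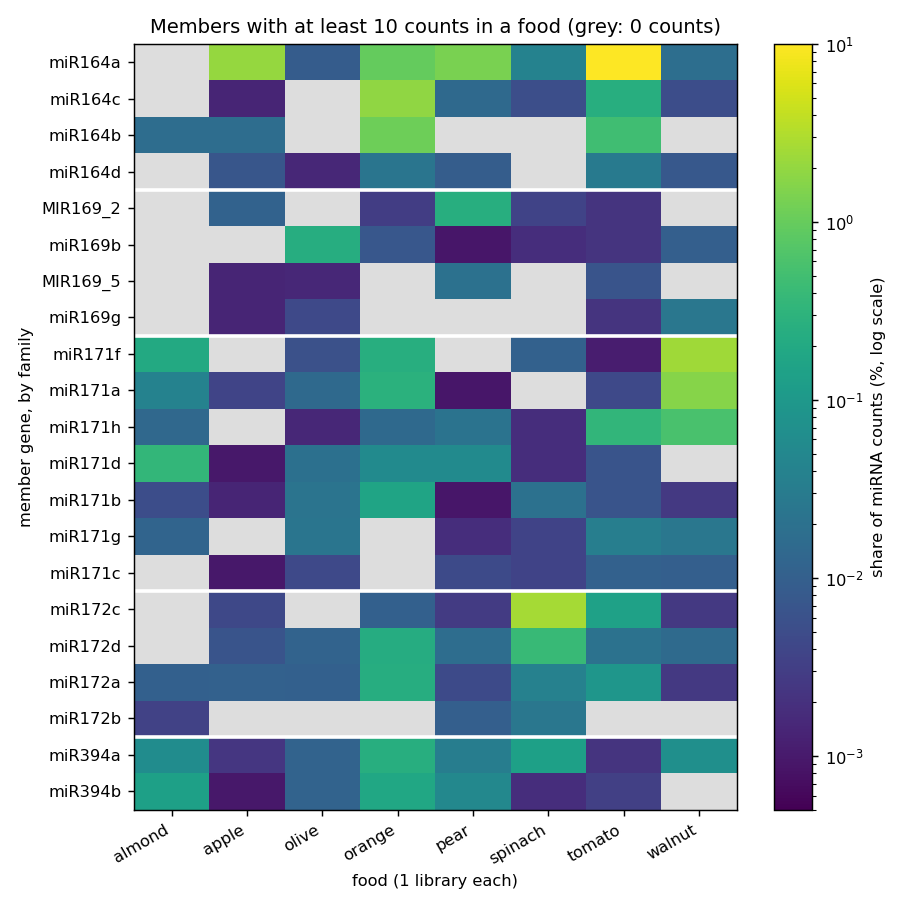
Share of each member with at least 10 counts in a food, as colour on a log scale in percent of the library's miRNA counts, with the foods in columns and the genes in rows grouped by family; grey marks 0 counts. The brightest cells are miR164a in tomato at 9.97%, miR172c in spinach at 2.60% and miR171f in walnut at 2.45%.

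miR169 had the most annotated genes and the fewest counts, with 588 over the 8 libraries on 16 genes. Of the 16 genes, 8 (50%) had 3 or more counts in a food, against 72.2% of all genes of the table. Every gene of the other 4 families reached this number. Pear and olive held equal shares, 0.270% (95% CI 0.240 to 0.302) and 0.269% (0.231 to 0.311), a ratio of 1.00 (0.830 to 1.21). In normalized reads the pear value was 0.402 of that of olive, and with edgeR TMM 0.513. Among genes whose name carries the ppe- prefix, which leaves out those named MIR169_2 and MIR169_5, pear held 0.00183% and olive 0.265%. Walnut had 0.0510% (0.0311 to 0.0787), spinach 0.0310% (0.0180 to 0.0496), orange 0.0284% (0.0171 to 0.0443) and tomato 0.0199% (0.0118 to 0.0314). Apple had 0.0156% (0.0107 to 0.0219) and almond 0.00877% (0.00285 to 0.0205), and the intervals of neighbours among these 6 foods overlapped.

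The pear and olive counts fell on different genes. In olive, miR169b (ENSRNA049996011; G1, 5647462 to 5647618, + strand) had 159 of the 182 counts, or 87.4% (81.6 to 91.8). It had 5 counts in orange, 4 in walnut, 2 in tomato, 1 in pear and in spinach, and 0 in almond and apple. In pear, 270 of the 294 counts, or 91.8% (88.1 to 94.7), lay on a gene that the table names MIR169_2 (ENSRNA050003201; G5, 13330835 to 13330986, - strand). This gene also led in apple, with 24 of 33 counts, and had 2 counts in orange, spinach and tomato and 0 in almond, olive and walnut. Pear and apple are close relatives, and pear had 21.9 times the apple share of this gene (14.4 to 34.8). The ratio was 92.4 in normalized reads and 10.6 with DESeq2 poscounts factors. The remaining genes were low, with highest counts of 22 for MIR169_5 in pear, 10 for miR169g in walnut, 8 for miR169j in olive and 5 for miR169a in orange. miR169f and the MIR169_2 gene ENSRNA050003691 each reached 4. The highest count was 1 or 2 for 7 genes (miR169c, miR169d, miR169h, miR169i, miR169k, miR169l and the MIR169_2 gene ENSRNA050004180), and miR169e had 0 counts in all 8 foods, as did 10.5% of all genes.

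The positions of the genes, which played no part in choosing them, were compared with these counts. Of the 16 miR169 genes, 7 lie within 48436 bp of G1, from 5641715 to 5690150. Together they had 194 counts over the 8 libraries, of which 164 were from olive. Only miR169b and miR169a reached 3 counts in a food, and the other 5 genes stayed at 2 or fewer. Neighbours within this stretch were thus counted unequally, and miR169e and miR169b, 3090 bp apart on the same strand, had 0 and 172 counts. On G3, miR169i and miR169g lie 95 bp apart on the same strand and had 2 and 18 counts.

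**Figure D5:**
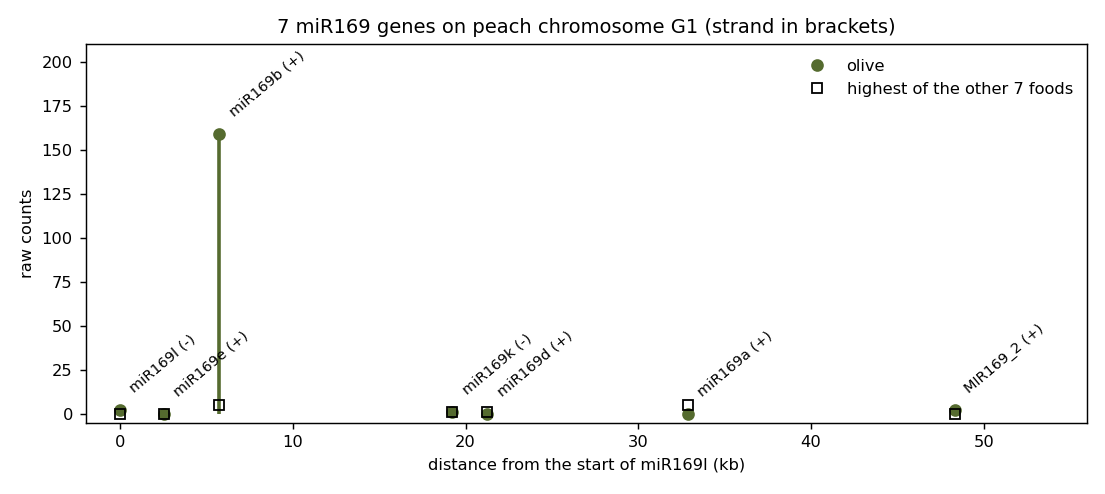
Raw counts of the 7 neighbouring miR169 genes on G1 by their distance in kb from the start of miR169l; filled points are olive and open squares the highest count among the other 7 foods. miR169b stands at 159 counts in olive, and the other 6 genes have at most 5 counts in any food.

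In 2 places, members of the same family are annotated on opposite strands of the same stretch. miR171a and miR171e share 97 bp, with 876 and 20 counts over all foods, and miR171a was higher in 6 foods, while tomato had 4 counts of miR171a and 9 of miR171e. The MIR169_2 gene on G5 shares 152 bp with MIR169_5, with 300 and 32 counts over all foods, and the order was reversed in tomato, with 2 and 6 counts, and in olive, with 0 and 1. The authors counted by strand, so these reads were assigned by the strand on which they matched.

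Among the 4 families with more than 2 genes there were 21 pairs of a family and a food with at least 20 counts, and in 14 of them (66.7%) 1 copy held more than 50% of the family's counts. In the 14 other families of 3 or more genes in the table this held for 71 of 77 pairs (92.2%). miR394 was left out after the data had been seen, since with 2 genes 1 copy holds at least 50% by construction. The exceptions among the pairs with at least 100 counts were miR164 and miR171 in orange. Low counts often stood beside high ones of the same gene in another library, such as 7 counts of miR164a in walnut beside 9034 in tomato. The part of reads carried over between libraries in such counts was not tested.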

How the data were processed

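Small RNA libraries of 8 foods were made with the NEBNext small RNA kit, with 1 library per food. The authors removed adapters with skewer, aligned reads of 15 to 30 bases to the peach genome (Prunus persica NCBIv2, miRNAs of miRBase 22) with ShortStack, allowing at most 2 mismatches in the seed, and counted reads per gene and strand with HTSeq. Tool versions: not given in the sources used here. In the deposit, the authors' raw table holds counts, without normalization, and the deposited normalized table holds a signal, the counts divided by 1 DESeq2 factor per library.

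The 5 families were selected by number, and these and the comparison families were chosen with earlier results of these data known. Shares were taken of each library's total count, with exact 95% intervals (Clopper-Pearson, or a conditional binomial interval where 2 shares were divided). Genes with at least 100 counts in a food were named with all 8 values, and others by their highest count. Copies were compared in foods with at least 20 counts of the family. Alternatives were other scalings (normalized reads, edgeR TMM, DESeq2 poscounts, totals without the 3 highest genes), other count minimums, thinning (100 draws) and only genes named with the ppe- prefix. Dixon's test was applied to 6 shares over the 8 foods. The labels give an input of 0.5 g for almond and for walnut, and 0.1 g for each of the other foods. The study's text gives a lower mass for walnut and none for almond. No correction for input was made. Labelled input differed together with the food, so its part in differences between foods was not tested. Coordinates are those of the deposited table. Mature sequences are not used here. The software was Python 3.11.15, scipy 1.17.1, pandas 2.3.3, numpy 2.4.6, matplotlib 3.10.9, R 4.3.3, edgeR 4.0.16 and DESeq2 1.42.0.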

Additional observations from a re-analysis of the deposited data

Results flagged for a closer look

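Of 6 shares tested over the 8 foods (5 families and their sum), 4 had a food whose gap to the next exceeded Dixon's 95% critical value for 8 values. These were miR164 in tomato at 10.7% of the miRNA counts, miR171 in walnut at 4.73%, miR172 in spinach at 3.06% and miR394 in orange at 0.427%. In deposited normalized reads orange (270.5) and not tomato (224.4) was highest for miR164, and almond (107.9) and not orange (28.5) for miR394. The ratios of gap to range were 0.623, 0.840, 0.847 and 0.540. Chance sets about 1 in 20 groups of normally distributed values apart in this way, and these shares are skewed and come from different plants, so the rate need not hold.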

How the results depend on the processing

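No paired analysis was possible because each food had 1 library. For miR164 and miR394 the leading food changed in the deposited normalized reads and in none of the other scalings. For miR169, pear and olive had equal shares, and which of them was higher depended on the scaling. In deposited normalized reads the ratio of tomato to orange for miR164 was 0.829 and that of orange to almond for miR394 0.264, both reversed. That of pear to olive for miR169 was 0.402, against 1.00 by share. Walnut to orange for miR171 was 9.49 (1.40 against almond, the next food there) and spinach to orange for miR172 2.44. With edgeR TMM the 5 ratios were 1.69, 0.513, 7.01, 4.47 and 5.25, in the order miR164, miR169, miR171, miR172 and miR394. With DESeq2 poscounts they were 4.06 for miR164, 1.21 for miR169, 4.90 for miR171, 4.73 for miR172 and 4.30 for miR394. Without the 3 highest genes of each library they were 1.92 for miR164, 1.32 for miR169, 5.39 for miR171, 5.71 for miR172 and 4.56 for miR394. The leading shares then rose to 26.1% for miR164 in tomato, 0.748% for miR169 in pear, 13.8% for miR171 in walnut, 9.18% for miR172 in spinach and 1.43% for miR394 in orange, because the total was smaller. The share of the 5 families together was then 1.38% in almond, 10.4% in apple, 0.887% in olive, 19.2% in orange, 5.18% in pear, 9.95% in spinach, 27.8% in tomato and 14.3% in walnut. The number of miR169 genes detected was 15 of 16 with at least 1 count and 4 of 16 with at least 10 counts. It was 5 among genes named with the ppe- prefix, a smaller set that leaves out those named MIR169_2 and MIR169_5. With that prefix the pear shares were 0.00183% for miR169 and 1.60% for the 5 families, and the olive share of miR169 was 0.265%. Thinning to 39249 counts left 7.12 miR169 genes and 25.01 of all members. Of the pairs with at least 100 counts in families of 3 or more genes, 11 of 13 (84.6%) had 1 copy above 50%. With scalings tried once the data were known, the walnut to tomato ratio of miR171h was between 0.896 (DESeq2 poscounts, reversed) and 8.49.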
